A study of Mus musculus with 4 samples.

Results

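Red blood cells are 1 of 13 populations that the authors named in a single-cell catalogue of mouse Achilles tendon, and the 145 cells with that label, of 1191 in all, are described here. They were chosen by the deposited label alone. Single cells of tendons from male C57Bl/6 mice aged 6 weeks were profiled with version 3 of the 10x Genomics 3' chemistry, in which each captured transcript carries a unique molecular identifier (UMI) that is counted once. The 4 libraries belong to 1 group with no treatment, and it is not given how many mice went into each. The labelled cells numbered 54, 63, 14 and 14 in libraries 1, 2, 3 and 4, which was 9.31%, 25.6%, 5.47% and 12.8% of the cells of each library. All 1191 barcodes were distinct. The libraries held 109 to 580 cells and 1375111 to 5603366 UMIs, and the spread between them is the only error available, which may be technical.

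Mammalian red blood cells arise from nucleated erythroblasts that fill with hemoglobin, expel the nucleus and enter the blood as reticulocytes, which still hold RNA, ribosomes and mitochondria. Hemoglobin pairs alpha and beta globin chains around heme, whose synthesis starts with Alas2 and ends with Fech, both in mitochondria. A reticulocyte makes no new RNA and loses its organelles and remaining transcripts as it matures, so the transcripts it carries were inherited from the erythroblast.

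The label held for 138 of the 145 cells, in which the 4 adult globin genes Hba-a1, Hba-a2, Hbb-bs and Hbb-bt gave at least 66.4% of the UMIs. In all but 1 of these globin-rich cells the share was 88.1% or more. The other 7 labelled cells, 5 in library 1 and 2 in library 2, had at most 0.800% globin and no UMI of the marker Alas2 or of Bpgm. These globin-poor cells were 4.83% of the labelled cells but carried 51.1% of their UMIs outside the globins, with 45.5% in library 1 and 64.3% in library 2. Values are therefore given for the globin-rich cells, with all labelled cells beside them for some of the summed values. Levels of single genes and of most lists also moved with the 7 cells and are mostly given for globin-rich cells only.

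**Figure D1:**
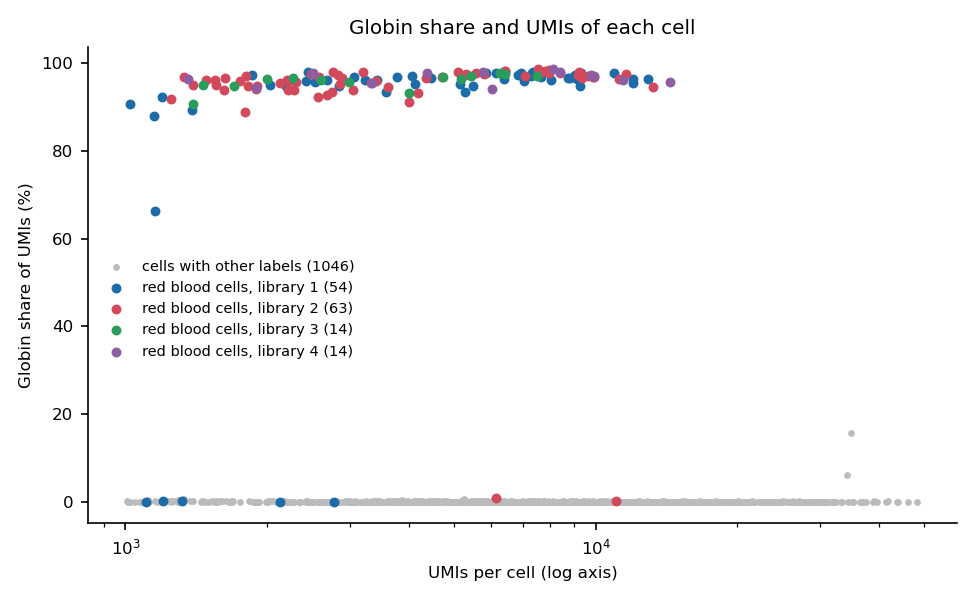
Each point is 1 cell, placed by its UMIs (log axis) and by the share of its UMIs from the 4 adult globin genes, with red blood cells coloured by library and cells with other labels in grey. The 138 globin-rich cells lie between 66.4% and 98.8%, and the 7 globin-poor labelled cells lie among the grey points near 0.

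Upstream sequence of the globins and of Alas2 is shown because these genes supplied nearly all UMIs and the highest named marker beside the globins. Windows are the 250 bases before the RefSeq start in GRCm38.p6, read along the gene's strand, and capitals mark 3 short motifs on either strand. The first is GATAA, known as a core that GATA factors bind, which reads TTATC from the other strand. The second is CACCC, bound by Kruppel-like factors, which reads GGGTG. The third is CCAAT, bound by NF-Y, which reads ATTGG. Neighbouring matches run together without a gap.

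Hba-a1, chr11:32283422-32283671, plus strand: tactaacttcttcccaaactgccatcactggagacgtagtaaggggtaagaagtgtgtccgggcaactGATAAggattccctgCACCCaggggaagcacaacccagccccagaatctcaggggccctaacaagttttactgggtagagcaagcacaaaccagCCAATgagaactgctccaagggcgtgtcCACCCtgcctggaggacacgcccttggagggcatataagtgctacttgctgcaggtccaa
Hbb-bs, chr7:103827929-103828178, minus strand: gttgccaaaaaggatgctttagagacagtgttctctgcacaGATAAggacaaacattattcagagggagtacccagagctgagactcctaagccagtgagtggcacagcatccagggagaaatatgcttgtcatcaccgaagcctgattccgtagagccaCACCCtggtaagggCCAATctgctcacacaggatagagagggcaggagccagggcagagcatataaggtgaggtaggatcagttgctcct
Hbb-bt, chr7:103813924-103814173, minus strand: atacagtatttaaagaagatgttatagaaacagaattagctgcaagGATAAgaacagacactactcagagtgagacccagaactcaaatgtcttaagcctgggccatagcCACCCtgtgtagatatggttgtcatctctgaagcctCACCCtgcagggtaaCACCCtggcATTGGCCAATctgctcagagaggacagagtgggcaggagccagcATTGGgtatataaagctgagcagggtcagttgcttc
Alas2, chrX:150547167-150547416, plus strand: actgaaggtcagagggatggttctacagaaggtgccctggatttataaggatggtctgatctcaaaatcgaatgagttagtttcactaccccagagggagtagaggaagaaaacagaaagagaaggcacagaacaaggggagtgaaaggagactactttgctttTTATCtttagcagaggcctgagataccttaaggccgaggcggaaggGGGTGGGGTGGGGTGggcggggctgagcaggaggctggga

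All 4 windows hold CACCC and GATAA, and the 3 globin windows hold CCAAT. Hba-a2 (GENCODE span chr11:32296489-32297298) has the same upstream sequence as Hba-a1, with 0 differing bases over 247 aligned, whereas Hbb-bs and Hbb-bt were 71.7% identical over 244. The GENCODE models of the 4 printed genes begin inside these windows, so the 2 annotations place the start differently. Among genes of the erythroid lists with 10 or more UMIs, 18 of 28 were matched to RefSeq, with 25 windows. GATAA occurred in 3 of these windows (12%), against 22.6% of all 32851 windows of that length. CACCC occurred in 14 (56%), against 52.0%, and CCAAT in 11 (44%), against 33.8%.

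Globin transcripts took 96.4%, 96.6%, 96.4% and 96.8% of the UMIs of globin-rich cells in libraries 1 to 4, a mean of 96.6% ± 0.214 (SD, n = 4). With all labelled cells the shares were 93.6%, 91.1%, 96.4% and 96.8%. Exact Clopper-Pearson 95% intervals, which cover counting error only, reached at most 0.160 percentage points from these values. A globin-rich cell had a median of 4267.5 UMIs and 73.5 genes, against 8369.5 UMIs and 2748.5 genes in cells with other labels. The transcripts beside the globins thus rest on few molecules: a median of 169, 135, 136 and 130.5 UMIs per globin-rich cell, and 24520 in all.

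The beta gene Hbb-bs alone gave 50.2%, 51.0%, 51.1% and 50.3% of globin UMIs. Hba-a1 followed with a mean of 23.7% ± 0.370, Hba-a2 with 17.6% ± 0.306 and Hbb-bt with 8.10% ± 1.04 (SD, n = 4). The ratio of alpha to beta UMIs was 0.677, 0.714, 0.717 and 0.702. These are ratios of captured 3' ends and not of globin chains. The last 200 transcript bases, where 3' reads fall, differed at 37 of 197 aligned bases between Hbb-bs and Hbb-bt, but at 1 of 184 between Hba-a1 and Hba-a2. The split of the beta genes is therefore readable for reads within those bases. The beta coding sequences differed at only 1 of 444 bases, so reads that fall there may not tell them apart. How many reads did so was not examined. The split of the alpha genes depends on how near-identical reads were assigned and is uncertain. Both pairs lie side by side on their chromosomes, the alpha genes on chromosome 11 (Hba-a1 at chr11:32283511-32284465) and the beta genes on chromosome 7 (Hbb-bs at chr7:103826534-103828096, Hbb-bt at chr7:103812524-103813996).

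The share of Hbb-bt in beta globin varied widely from cell to cell. In globin-rich cells it ran from 0.668% to 26.1% in library 1 with a median of 14.7%, from 0.596% to 22.7% in library 2 with a median of 10.5%, from 0.628% to 19.2% in library 3 with a median of 13.0%, and from 1.39% to 22.8% in library 4 with a median of 9.75%. Its SD over cells was 6.56, 6.23, 5.47 and 6.90 percentage points, where counting error alone gave 0.83, 0.84, 0.84 and 0.83. The share of Hba-a2 in alpha globin, measured in the same cells, had an SD of 3.03, 2.13, 2.82 and 1.99, against counting errors of 1.34, 1.38, 1.45 and 1.14. Cells with under 5% Hbb-bt numbered 7, 15, 2 and 4.

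Cells with a high Hbb-bt share also carried more transcripts beside the globins. Spearman's rho between that share and the UMIs outside the globins was 0.574, 0.739, 0.493 and 0.868 over the 49, 61, 14 and 14 globin-rich cells of the libraries. It is a description of cells that share a library and a capture depth, and rho with the total UMIs of a cell was 0.323, 0.537, 0.288 and 0.793. When the cells of each library were divided at the median Hbb-bt share, the low part averaged 146, 99.4, 121 and 111 UMIs outside the globins per cell and the high part 274, 215, 155 and 294. Erythroid genes of the lists below took 25.0%, 23.5%, 26.1% and 25.6% of those UMIs in the low part and 29.0%, 32.4%, 29.9% and 34.1% in the high part. Ribosomal protein genes stood the other way, at 9.42%, 9.90%, 8.24% and 7.24% in the low part and 6.17%, 4.31%, 3.33% and 3.60% in the high part. Alas2 had more UMIs per cell in the high part, at 13.0, 13.4, 9 and 15.6 against 7.84, 8.16, 8 and 7.14 in the low part. Its share of the UMIs outside the globins was nevertheless smaller in the high part, at 47286, 62316, 58226 and 53016 per 1000000, against 53699, 82143, 65882 and 64600. Mitochondrially encoded genes were also lower there, at 9.29%, 10.0%, 8.87% and 3.75% against 9.32%, 15.0%, 10.0% and 8.27%. Each of these measures had the same order in 4 of 4 libraries.

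Divided instead at the median of UMIs per cell, the cells gave the same order in 4 of 4 libraries for each measure except the Alas2 share. Erythroid genes took 24.8%, 26.8%, 26.5% and 30.4% in the shallower part and 29.2%, 30.8%, 29.1% and 32.2% in the deeper part. Ribosomal protein genes took 7.51%, 7.19%, 7.23% and 5.57% in the shallower part and 7.23%, 5.59%, 4.57% and 4.31% in the deeper part. These 3 orders thus appeared by depth as well, whose part in the orders by Hbb-bt share was not tested.

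**Figure D2:**
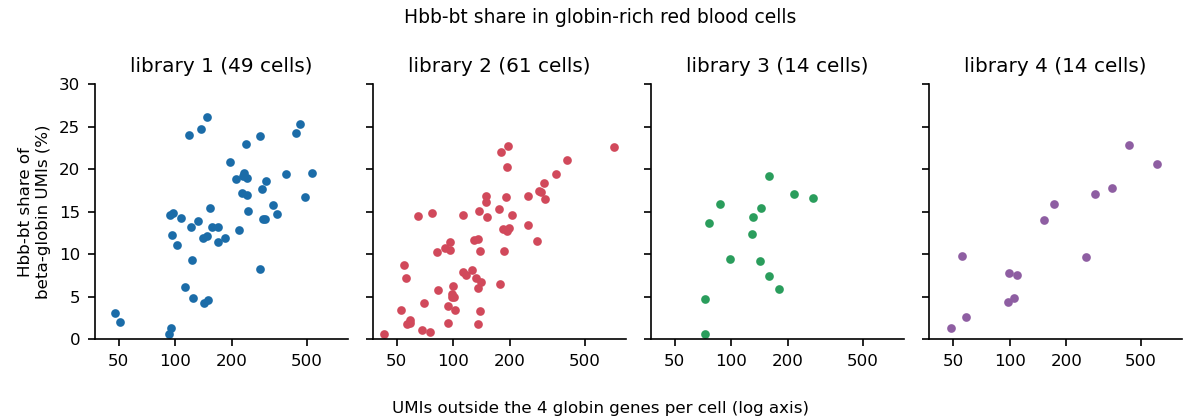
Each point is 1 globin-rich cell, placed by its UMIs outside the 4 globin genes (log axis) and by the share of Hbb-bt in its beta-globin UMIs, in 1 panel per library. Points run from lower left to upper right in each panel, with shares between 0.596% and 26.1%.

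Levels beside the globins are given as non-globin CPM, the UMIs of a gene per 1000000 UMIs outside the 4 globin genes, summed per library. Counting 3' ends gives a transcript 1 UMI whatever its length, so levels of different genes need no length correction. A gene is called higher where its mean over libraries is at least 2-fold above that in all other cells and it is higher in each of the 4 libraries, among genes whose 2 means average 100 or more. Of 1065 genes so compared for globin-rich cells, 132 were higher (12.4%) and 497 lower (46.7%). With all labelled cells 1200 genes were compared, of which 134 were higher (11.2%) and 476 lower (39.7%), and 128 genes were higher both ways. The population was formed from these same counts, so the calls describe it and carry no test. Of the 1065 genes, 221 had 0 UMIs in globin-rich cells. A lower call means little for a gene of modest level in library 3, where 1 UMI is worth 518 non-globin CPM.

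A short set of transcripts filled the remainder. The 20 genes with the highest levels, ribosomal protein and mitochondrially encoded genes apart, held 45.5% of the UMIs outside the globins in globin-rich cells and 34.8% of them in all labelled cells. Gm42418, a locus that overlaps ribosomal RNA sequence, led with 103158, 109957, 67288 and 84806 non-globin CPM, against a mean of 13026 in other cells. Alas2, which commits glycine to heme synthesis in the erythroid lineage, came next with 49575, 68723, 61594 and 56184, against 0.941 in other cells. Its 1440 UMIs in globin-rich cells compare with 12 in all other cells, and the lowest library lay far above the highest value elsewhere. Fam46c, a poly(A) polymerase, had 27672, 32316, 29503 and 30742 and a ratio of 902 to other cells. Bpgm, which makes the 2,3-bisphosphoglycerate that lowers the oxygen affinity of hemoglobin, had 24250, 28434, 21739 and 28269 and a ratio of 1781.

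Ubb, a ubiquitin gene, varied more, with 22294, 25496, 12940 and 38869 non-globin CPM and 1364 in other cells. Oaz1, the antizyme that limits polyamine synthesis, was even across libraries, with 17698, 17522, 18116 and 16608. Fam220a had 14656 ± 4091 and Sec61g, a subunit of the channel for secretory proteins, 16140 ± 2138 (SD, n = 4). The remaining leaders Tpt1 and Pabpc1, the latter a poly(A)-binding protein, stood only 5.05-fold and 18.2-fold above other cells. Tmsb4x, an actin-binding peptide gene, ranked among the 20 only with all labelled cells. It had 989 UMIs there and 16 in globin-rich cells, and 920 came from 1 globin-poor cell of library 2.

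**Figure D3:**
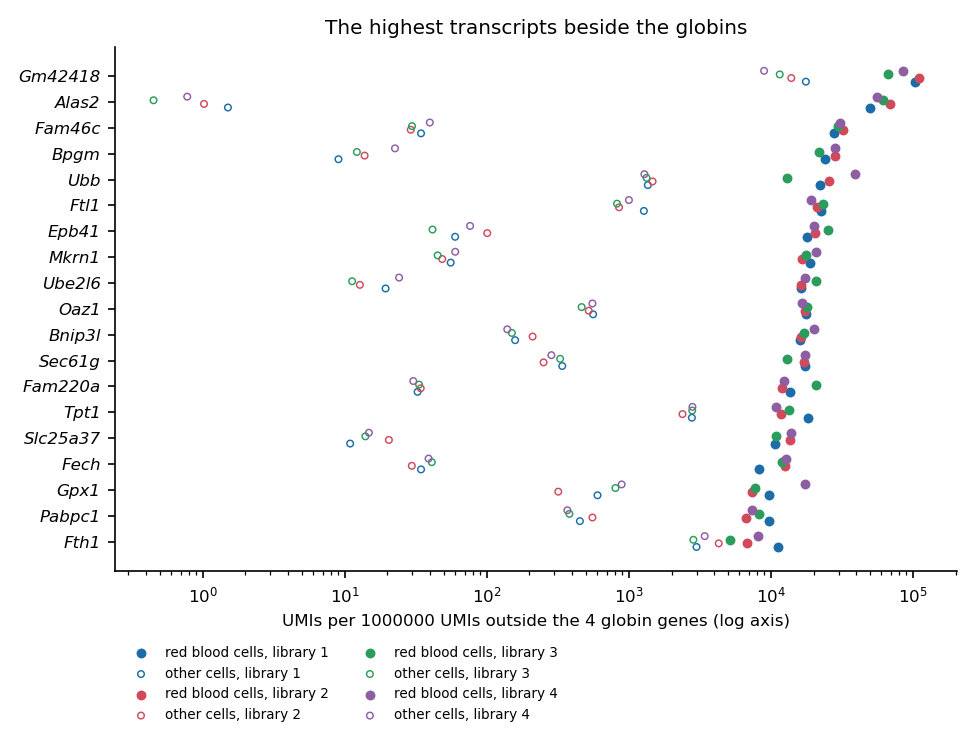
Filled points show non-globin CPM (log axis) in globin-rich red blood cells and open points the same in all other cells, for 19 of the 20 highest genes and each library. In every row the 4 filled points lie to the right of the 4 open ones, by the widest margin for Alas2 and the narrowest for Fth1, whose ratio of means was 2.3.

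Of heme synthesis, the first and the last enzyme were prominent and the steps between them had few or no UMIs. Alas2 and Fech, the ferrochelatase that inserts iron, had 1440 and 264 UMIs in globin-rich cells. Fech stood at 8311, 12591, 11905 and 12721 non-globin CPM, 316-fold above other cells. Alad had 2 UMIs, from libraries 3 and 4, and a ratio of 18.0 to other cells. Urod had 1 UMI, and Uros, Cpox and Ppox had 0. Those at 0 had 48 to 231 UMIs in other cells. A count of 0 in the 24520 UMIs allows up to 122 non-globin CPM, above the level of each of these genes in other cells, so their zeros do not separate the populations. Of the 8 genes, 3 passed the filter and 2 were called higher, beside 12.4% of all genes compared.

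Iron handling showed the same concentration in a few genes. Slc25a37 (mitoferrin), which carries iron into mitochondria, had 10658, 13745, 10870 and 13781 non-globin CPM, 815-fold above other cells. The ferritin light chain Ftl1 had 22587, 21194, 23292 and 19081, which was 21.8-fold, and the heavy chain Fth1 11147, 6820, 5176 and 8127, which was 2.3-fold. Glrx5, which hands on iron-sulfur clusters, had 33 UMIs and Snx3, which recycles the transferrin receptor, 18. The receptor Tfrc itself, the iron transporter Slc11a2, the ferrireductase Steap3, the exporters Slc40a1 and Flvcr1, and Abcb6 and Abcb10 had 0. Here too a 0 allows up to 122 non-globin CPM. Flvcr1, Abcb6 and Abcb10 had only 12.1, 7.86 and 16.0 in other cells, so their zeros do not separate the populations. Of the 12 listed genes 5 passed the filter and 5 were called higher, beside 12.4% of all genes compared.

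**Figure D4:**
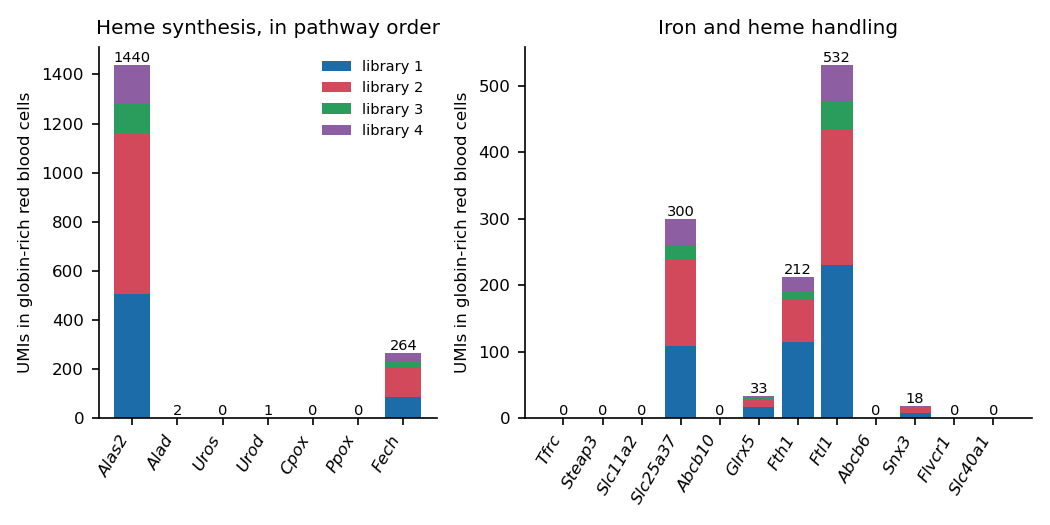
Bars give the UMIs of each gene summed over globin-rich cells, stacked by library, for heme synthesis in pathway order (left) and iron and heme handling (right). Alas2 (1440) and Fech (264) stand alone on the left, and Slc25a37 (300), Fth1 (212) and Ftl1 (532) make up nearly all of the right panel.

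The list for protein turnover and organelle removal, which also holds genes that act on RNA, held the largest share of the erythroid lists. It took 10.5% ± 0.521 of non-globin UMIs (SD, n = 4) against 0.0847% in other cells, and heme synthesis took 7.06% ± 0.979. Mkrn1, a ubiquitin ligase, had 18969, 16578, 17598 and 20848 non-globin CPM. Bnip3l (Nix), the receptor that marks reticulocyte mitochondria for removal, had 16134, 16368, 17081 and 20141. Ube2o, the ubiquitin enzyme known to clear ribosomes and other proteins from reticulocytes, had 7920, 5771, 6729 and 8834. The autophagy genes Gabarapl2 and Map1lc3b had 116 and 85 UMIs. Ube2l6, a conjugating enzyme for ubiquitin-like ISG15, had 17654 ± 2089. The list also holds Fam46c (30058 ± 1964) and the exonuclease Isg20 (5227 ± 845), which act on RNA. Its sum of 104762 exceeded the 70643 of heme synthesis only with these genes included. Of 11 listed genes measured, 8 passed the filter and 8 were called higher, beside 12.4% of all genes compared, while Ulk1 had 0 UMIs, Xpo7 1 and Fbxo7 2.

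Most membrane skeleton UMIs came from 1 gene. Epb41 (protein 4.1), which ties the actin skeleton to the membrane, had 17894, 20565, 25362 and 20141 non-globin CPM, 485 of the 592 UMIs of its list. Slc4a1 (band 3), the anion exchanger and a main protein of that membrane, had 30 UMIs. It was at 0 in other cells, which makes it at least 4387-fold higher against a floor of 3 counts over all other cells. In library 3, with 14 cells, it was listed at 0. Sptb and Tmod1 had 3 UMIs each, Dmtn 2, Ank1 and Add2 1, and Gypc and Icam4 0. Of 12 genes measured, 5 passed the filter, with 1, Epb41, called higher and 1, Aqp1, called lower. Over all genes compared 12.4% were higher and 46.7% lower. Slc4a1, at 0 in library 3, was not called.

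Among cytosolic and redox genes, Gpx1, which reduces peroxides, had 9680, 7344, 7764 and 17315 non-globin CPM, highest in library 4. Prdx2, a peroxiredoxin abundant in red cells, had 4596, 2938, 1553 and 6360, and catalase (Cat) 44 UMIs. Car2, a carbonic anhydrase, had 3227, 1469, 1035 and 7067 and was 712-fold above other cells, and Blvrb had 42 UMIs. Sod1 had 1 UMI and did not pass the filter. Of 9 genes measured, 7 passed the filter and 5 were called higher, beside 12.4% of all genes compared.

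Of 9 listed transcription factors 6 were measured, with 11 UMIs in all. Lmo2 had 10 UMIs, at 587, 210, 518 and 353 non-globin CPM against a mean of 47.7 in other cells, and was the 1 factor that passed the filter and was called higher. Zfpm1 had 1 UMI, and Tal1, Nfe2, Ldb1 and Bcl11a had 0. The early genes Kit, Gata2 and Myb had 0. In other cells these early genes summed to 65.4 non-globin CPM, and Ldb1 and Bcl11a had 65.7 and 0.377. All lie below the 122 that a 0 allows, so these zeros do not separate the populations. Of 7 cell division genes Ube2c had 22 UMIs in 13 cells and Mki67 2, and the other 5 had 0. The 7 summed to only 120 non-globin CPM in other cells, so the same limit holds for these zeros. E2f2, a cell cycle regulator that entered by its ratio, had 24 UMIs. Ube2c and E2f2 each had 8 UMIs in library 4 and 1 in library 3.

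Together these erythroid lists, 58 genes without the globins, held 27.5%, 29.4%, 28.2% and 31.8% of non-globin UMIs in globin-rich cells, a mean of 29.2% ± 1.88 (SD, n = 4) against 0.811% in other cells. With all labelled cells the shares were 15.4%, 11.5%, 28.2% and 31.8%. Of the 58 genes 29 passed the filter, with 22 called higher and 1, the water channel gene Aqp1, called lower, beside 12.4% higher and 46.7% lower over all 1065 genes compared. Their median ratio was 106, beside 0.474 over all genes compared. Genes with high levels in these cells pass the filter through those levels, and 18 of the 58 had 0 UMIs in globin-rich cells. The lists were also chosen with earlier results of these data known, so the counts of calls only describe them.

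Ordered by ratio to other cells, 11 of the 20 highest genes were list members: Alas2, Bpgm, Ube2l6, Fam46c, Isg20, Slc25a37, Car2, Mkrn1, Fech, Epb41 and Ube2o. The lists were chosen with earlier results of these data known, so this overlap is a description and no independent support. Ube2c comes from the cell division list, and 8 others were on no list. Rec114, known from meiotic recombination, had 92 UMIs in 50 globin-rich cells and 3 in other cells, a pooled ratio of 13453 with an exact 95% interval of 4462 to 66432. It stood at 3031, 4302, 4141 and 4240 non-globin CPM, so all 4 libraries carried it. Isca1, of iron-sulfur cluster assembly, had 4400, 4617, 9834 and 2473, and Slc25a39, a mitochondrial carrier, 4400, 4721, 6729 and 3887. Fam213a had 1271, 734, 6729 and 9187, a spread in which libraries 3 and 4 did not overlap libraries 1 and 2. Fam220a, E2f2 and Dhrs11, the last with 10 UMIs, were also among these.

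Alas2 was found in 133 of 138 globin-rich cells. After every cell was thinned to 1000 UMIs it was found in 84.2% ± 3.81 of globin-rich cells (mean over libraries, SD, n = 4) and 81.5% ± 3.96 of all labelled cells. Among 190 endothelial cells 1, which should lack it, 0 had a UMI after thinning, where a floor of 3 cells allows up to 1.58% of cells with a UMI, and 2 had one before. Median depths were 4267.5 and 7343 UMIs. Thinned in the same way, Bpgm was found in 46.4% of globin-rich cells and 1.05% of endothelial cells 1, and Slc25a37 in 34.8% and 0.526%. Epb41 was found in 47.8% and 10.0%, the highest share in endothelial cells 1 among these 4 genes. Other erythroid list genes separated the cells less: Bnip3l was found in 37.7% and 15.8%. Fth1 stood the other way, at 26.1% of globin-rich cells and 62.6% of endothelial cells 1. The 1000 UMIs include globin, which took 96.5% of the UMIs of globin-rich cells. Far fewer UMIs outside the globins were therefore kept there than in endothelial cells 1, which lowers detection. In non-globin CPM, defined above, Fth1 was 2.3-fold higher in globin-rich cells than in all other cells.

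Nuclear transcripts were low. Malat1, a nuclear long non-coding RNA found in most nucleated cells, had 55 UMIs in globin-rich cells, or 2933, 1469, 3623 and 1413 non-globin CPM, against 41462 in other cells. After thinning it was found in 10.1% of globin-rich cells and 98.9% of endothelial cells 1. Part of that gap reflects the few UMIs outside the globins that thinning left in globin-rich cells. The 4 listed nuclear RNAs took 0.251% ± 0.132 of non-globin UMIs, against 4.32% in other cells. With all labelled cells that share was 0.472% ± 0.253. Mitochondrially encoded transcripts were still present, at 9.30%, 11.7%, 9.37% and 4.98% of non-globin UMIs, a mean of 8.83% ± 2.79 against 5.15% ± 0.615 in other cells. In library 4 they were below the 5.51% of its other cells. The 88 ribosomal protein genes took 7.33%, 6.12%, 5.49% and 4.59%, a mean of 5.88% ± 1.15 against 7.72%. Including the 7 globin-poor cells turned this order in the mean, to 10.1% ± 6.30.

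Transcripts of other tendon cells were few in globin-rich cells. The 47 genes of the lists for other cells took 0.831% ± 0.478 of non-globin UMIs, against 7.03% in other cells themselves and 1.27% ± 0.597 in all labelled cells. Most came from genes that are very abundant in the tissue, with Col1a1 at 40 UMIs, Col1a2 at 27, Dcn at 23 and the endothelial fatty acid binder Fabp4 at 40. Pecam1, Cdh5, Kdr, Egfl7 and Cldn5, which define endothelium, were at 0. All 6 platelet genes, 5 lymphocyte genes, 4 muscle genes and both neutrophil genes measured were also at 0, and the macrophage list had 6 UMIs. In other cells the first 4 of these lists summed to only 175, 11.1, 7.79 and 1.56 non-globin CPM. A count of 0 allows up to 122 for 1 gene. The zeros of the lymphocyte, muscle and neutrophil genes thus do not separate the populations, and the platelet sum is spread over 6 genes. The tendon fibroblast list stood at 188, 110, 426 and 89.1 CPM (UMIs per 1000000 of all UMIs) in globin-rich cells, while tendon fibroblasts were 29.7%, 5.69%, 63.3% and 29.4% of the cells of the libraries. Library 3, with the largest share of fibroblasts, had the highest value. Library 4 had the lowest, below library 2, whose share of fibroblasts was smallest. The values rest on 53, 31, 23 and 8 UMIs.

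The 7 globin-poor cells had different leading genes. In library 1, cells 1, 3 and 5 had high shares of ribosomal protein genes over 346 to 370 genes each. Cell 1 had 54.2% of its 1106 UMIs in ribosomal protein genes with 9 UMIs of the immunoglobulin gene Iglc2, and cell 3 had 45.6% of 1321 with 47 of Vim. Cell 2 had 133 UMIs of the myelin gene Mbp with 12 of Drp2 and 9 of Prx. Cell 4 had 1208 genes in 2128 UMIs with 79 of Malat1. Cell 5 had 40.2% in ribosomal protein genes, with 169 of Sparc, 79 of Clu, 44 of Col1a2 and 29 of Chad, genes of tendon matrix. In library 2, cell 6 had 132 UMIs of Pf4, 129 of Nrgn, 42 of Ppbp and 36 of Itga2b, all known from platelets, with 49 globin UMIs among 6124. Cell 7 was the largest, with 11069 UMIs, 3177 genes and 114 UMIs of Cdkn1c.

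Globin transcripts also appeared in cells with other labels. Of 1046 such cells, 290 (27.7%) had no globin UMI and the median was 1. A bursal fibroblast of library 1 with 15.7% globin and an endothelial cell 1 of library 4 with 6.15% stood apart, and the next cell had 0.686%. These 2 cells held 76.3% of the globin UMIs outside the red blood cells. Without them, globin stood at 187, 371, 63.2 and 404 CPM in libraries 1 to 4, in the same order of libraries as the red blood cell share except for libraries 2 and 4. With them the values were 1218, 371, 63.2 and 2028. Endothelial cells 1 had 226, 540, 195 and 670 CPM and tendon fibroblasts 169, 287, 47.2 and 318.

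The globin in those cells had a lower alpha to beta ratio than that in red blood cells, while the Hbb-bt share showed no common order. Without the 2 cells the alpha to beta ratio was 0.387, 0.487, 0.573 and 0.488, below that of globin-rich cells in each library. No counting interval was computed for it. In library 3 it rests on 28 UMIs of Hba-a1, 23 of Hba-a2, 77 of Hbb-bs and 12 of Hbb-bt. The share of Hbb-bt in beta globin was 14.5%, 13.6%, 13.5% and 15.3%, against 15.8%, 12.7%, 12.3% and 14.4% in globin-rich cells, and the order differed between libraries. Whether this globin is free RNA was not tested.

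**Figure D5:**
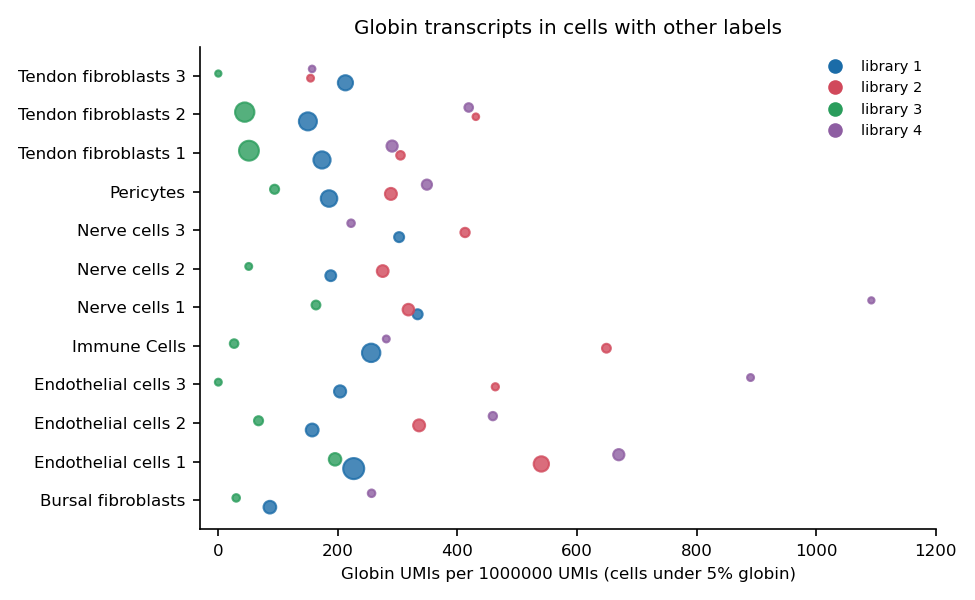
Points give globin CPM (UMIs per 1000000 UMIs) in each population and library, with cells of 5% globin or more left out and a point area that grows with the number of cells. Library 3 lies lowest in all 11 populations that had cells in it, and sums of few cells scatter up to 1093 CPM.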

How the data were processed

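Single-cell 3' RNA libraries from mouse Achilles tendon were analysed from the deposited tables. Per the submitters' processing notes, Cell Ranger, Seurat 2.3.4, R 3.5.2 and the build mm10 were used, with no role given to each. The deposited count table holds raw UMI counts of the 4 libraries, and a further table by the authors holds values on a natural log scale, which equal ln(1 + 10000 × count / total count of the cell) within 5.0e-10 and served only for that check. Library and population names come from the deposited cell table. In that table the recorded UMI count differs from the sum of the count table in 1055 cells, by up to 650. The count table was used throughout. Of 15750 gene entries, 4 with repeated names (0.0186% of UMIs) were left out. No cell filter was added, and doublets were not removed here. The cell filters, the gene filter and the clustering method are not given in the sources used here, so genes at 0 throughout a library may have been filtered there.

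Counts were summed per library and set against all other cells of the library (scipy 1.17.1, pandas 2.3.3 and numpy 2.4.6 under python 3.11.15, with matplotlib 3.10.9 for plots). With 1 group of libraries, and a population formed from these counts, no test was run. Intervals are exact Clopper-Pearson 95% intervals and floors are 3 counts, both for counting error only. Shares of cells were computed after thinning to 1000 UMIs, globins included. Globin-rich cells have 50% globin or more. Named genes are the adult globins and markers, the 20 highest by level, the 20 highest by ratio among genes higher in every library, and the members of the role lists. The members, lists and rules were chosen with earlier results of these data known. Listed genes without a value in the text, such as Gata1, Klf1, Ahsp and the embryonic globins, were not analysed here, and some others are not reported here. Alternatives covered the filter, fold, comparator, denominator, thinning, globin-poor cells and each library. Upstream sequences and their build come from RefSeq, and gene spans and transcripts from GENCODE M21 (GRCm38).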

Additional observations from a re-analysis of the deposited data

Results flagged for a closer look

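Levels in non-globin CPM of the genes highest by level or by ratio, and the summed shares, were examined for a library far from the other 3, in 76 groups of 4 libraries. In 9 of them 1 library stood apart by Dixon's criterion, which chance gives in about 1 in 20 groups.

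Tmsb4x with all labelled cells stood at 35437 in library 2, against 2079, 2070 and 353 in libraries 1, 3 and 4, and 920 of its 945 UMIs there come from 1 globin-poor cell. In globin-rich cells library 3 stood apart for Tmsb4x instead, at 2070, which is 4 UMIs. Ubb with all labelled cells was at 38869 in library 4 (110 UMIs), against 10162 to 12940 in the others. E2f2 with all labelled cells was at 2827 in library 4 (8 UMIs). Ube2c was at 2827 in library 4 both with all labelled cells and in globin-rich cells, also from 8 UMIs. Isca1 with all labelled cells was at 9834 in library 3 (19 UMIs). In globin-rich cells Rec114 was lowest in library 1, at 3031 (31 UMIs), and Sec61g lowest in library 3, at 12940 (25 UMIs). Libraries 3 and 4 had 14 red blood cells each, and 1 UMI is worth 518 and 353 non-globin CPM there.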

How the results depend on the processing

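Of 63 alternative values of 10 results, 60 stayed within the spread between libraries or, for the count of genes, within 1.5 times, and 3 did not. Leaving out 1 of 4 libraries cannot move a mean by as much as the SD between them. Such values of the results other than the count of genes therefore had to stay within the spread and say nothing of stability. With all UMIs as the denominator in place of the non-globin UMIs, the erythroid lists took 1.01% in place of 21.7%, and 18 genes in place of 134 were at least 2-fold higher, since globins fill the total. Without thinning, Alas2 was found in 92.0% of labelled cells in place of 81.5%. The number of genes higher was 134 with a filter of 50 non-globin CPM or with none. A gene called higher has at least 1 UMI in every library, worth 518 and 353 non-globin CPM in libraries 3 and 4. Every such gene therefore lies above the filter used. These looser settings thus had to give 134 and also say nothing of stability. The number was 125 with a filter of 200, 122 at 3-fold and 133 against endothelial cells 1. Without the globin-poor cells it was 132, and with 1 library left out 135 to 187. Leaving out 1 library moved the globin share of labelled cells between 93.7% and 95.6%, the erythroid lists between 18.4% and 25.1%, Alas2 detection between 80.2% and 82.8%, the lists of other cells between 1.09% and 1.55%, the alpha to beta ratio between 0.698 and 0.711 and the Hbb-bt share of beta between 13.1% and 14.3%. Globin in other cells was 920 CPM (UMIs per 1000000) with an SD of 886, between 551 and 1206 with 1 library left out, 662 without the cell over 10% globin and 256 without the 2 cells over 5%, an exclusion chosen after seeing the data. The nuclear RNA and ribosomal protein alternatives were also added after seeing the data. Leaving out the 7 globin-poor cells moved nuclear RNAs from 0.472% to 0.251% and ribosomal protein genes from 10.1% to 5.88%. No paired analysis was possible because no test was made: the libraries form 1 group, and red blood cells were set apart from the other cells of each library by these same counts. Depth limits genes below 122 non-globin CPM over all globin-rich cells, and below 1553 in library 3.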

Other observations

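Several interferon-inducible genes were among the transcripts of red blood cells, a list of 18 chosen after seeing these data and given as a description. Ube2l6 had 411 UMIs in globin-rich cells, the antiviral enzyme gene Rsad2 150, Isg20 125 and the ubiquitin-like modifier Isg15 81. Rsad2 stood at 6160, 5456, 1553 and 11307 non-globin CPM, 74.6-fold above other cells, and Isg15 at 2542, 4721, 1553 and 2473, 38.7-fold above them. Together the list took 3.24% ± 0.380 of non-globin UMIs (SD, n = 4), against 0.148% in other cells. The remaining members were scarce: 12 of the 18 had 2 UMIs or fewer and 9 had 0, while Irf7 had 4. Ifitm3, with 10 UMIs, was lower than in other cells, at 255 against 808 non-globin CPM. Of the 18 genes 6 passed the filter, with 4 called higher and 1 lower, beside 12.4% higher and 46.7% lower over all genes compared.

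The minor alpha-like globins Hbq1a and Hbq1b had 17 and 8 UMIs in globin-rich cells and 0 in other cells, at least 2486-fold and 1170-fold higher against a floor of 3 counts over all other cells. All came from libraries 1 and 2, and both genes were listed at 0 in libraries 3 and 4.

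The 2 cells with other labels and over 5% globin differed in what came with it. The bursal fibroblast had 34888 UMIs, 4908 genes, 5485 globin UMIs, 7 of Alas2 and 4 of Slc25a37, with an alpha to beta ratio of 0.595 and 8.17% Hbb-bt in beta globin. The endothelial cell had 34138 UMIs, 6372 genes, 2101 globin UMIs, 0 of Alas2 and Slc25a37, a ratio of 1.22 and 1.90% Hbb-bt.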
